A study of Mus musculus with 8 samples.

Results

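Macrophages without Lamin-A were compared with wild type macrophages after lipopolysaccharide, using the positions and strengths of open chromatin peaks. The comparison held 4 of the 8 ATAC-seq libraries of the series: 2 wild type (WT) and 2 Lamin-A knockout (KO) libraries, chosen because their titles and treatment fields say that the cells received lipopolysaccharide (LPS). All were mouse bone-marrow-derived macrophages, cultured from marrow for 7 days, exposed to LPS for 6 h and cryopreserved with 5% DMSO before lysis, tagmentation and 10 cycles of PCR. The other 4 libraries, 2 WT and 2 KO without LPS, carry the same genotypes and took no part in defining or classing the regions; they served to look at the same regions without LPS and, in the interaction test and the ranks of gene-poor regions, to compare the 2 conditions over regions called in all 8 lists. The labels state neither how much LPS was given, which part of Lmna was targeted, how old the animals were, nor whether replicates came from separate animals, so a p-value here measures the spread between these libraries, which may be technical. For these 4 libraries the source name contains both LPS and untreated, and the titles were followed.

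Lamin-A is an intermediate filament protein of the nuclear lamina, the meshwork under the inner nuclear membrane. The lamina holds gene-poor, mostly silent stretches of chromosomes at the nuclear edge, and its A-type part stiffens the nucleus and takes part in mechanical signalling, including to the actin-regulated cofactors of serum response factor. LPS, a component of the bacterial outer membrane, is sensed through Toll-like receptor 4 and leads to activation of NF-kB, AP-1 and interferon regulatory factors, which bind open regulatory DNA of inflammatory genes. ATAC-seq reads such open DNA through the insertions of the Tn5 transposase, and a peak is a stretch with more insertions than the local background.

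On chromosomes 1 to 19 the WT LPS lists held 58601 and 54324 peaks, and the KO LPS lists held 48772 and 44632. They covered 24.49 and 23.03 Mb in WT and 19.8 and 17.6 Mb in KO. Both KO lists were shorter than both WT lists, with a difference of the means of -9760.5 peaks, and the exact two-sided permutation p was 0.333, the smallest that 2 libraries against 2 can give. The lowest -log10 p of a listed peak was 7.35 to 7.93 in the 4 lists. Read depth was not used here, so peak number and depth cannot be told apart. Overlapping peaks (1 bp or more) were merged across the 4 lists into 65287 regions. The 2 WT lists shared 80.1% of their combined regions, the 2 KO lists 78.2%, and lists of different genotype 69.1 to 75.4%.

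Each region was placed in a class by which lists held a peak in it. A region with a peak in both KO lists and in neither WT list was called gained, and the reverse was called lost. There were 546 gained regions, 0.836% of all regions, and 5245 lost regions, 8.03%. A further 38485 regions (58.9%) had a peak in all 4 lists and are called common regions. Because the KO lists were shorter, a weak WT peak could be missing from them through list length alone, so the classes were also drawn with the 44632 strongest peaks of each list. The imbalance was then much smaller: 1445 of 54520 regions were gained (2.65%) and 1727 were lost (3.17%). Of the 5245 lost regions, 1393 (26.6%) kept both WT peaks at equal list length. With only 1 library of a genotype required, gained regions numbered 1357 and 916 when the first or the second WT library was left out and 1470 and 2144 when the first or the second KO library was, and lost regions numbered 8248, 11041, 9654 and 6991 in the same order.

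Within the common regions, strength was compared by rank. Each region was ranked by its -log10 p among the 38485 common regions of a library, and the rank is given below as a percentile, from 0 for the weakest to 100 for the strongest. For the test the ranks were turned into normal scores, on which 1 unit is 1 standard deviation of all common regions of a library, and limma compared KO with WT. At a Benjamini-Hochberg adjusted p under 0.05, 532 regions (1.38%) ranked higher in KO and 298 (0.774%) ranked lower. The KO percentiles lay wholly above the WT percentiles in 8772 regions (22.8%) and wholly below in 8931 (23.2%). The calls rest on the variance that limma borrows across regions of like strength: without that trend 0 regions passed in either direction, the lowest adjusted p was 0.193, and 4968 regions had an unadjusted p under 0.05. Ranking by the authors' fold enrichment in place of -log10 p called 45 higher and 102 lower, so that the share of higher calls went from 64.1 to 30.6%; all 45 of those higher calls and 65 of the 102 lower calls were also called by -log10 p, and all 532 and 298 regions called by -log10 p kept their sign. Leaving out the first or the second WT library gave 321 and 283 higher and 57 and 35 lower calls, and leaving out the first or the second KO library gave 619 and 283 higher and 901 and 430 lower calls.

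**Figure D1:**
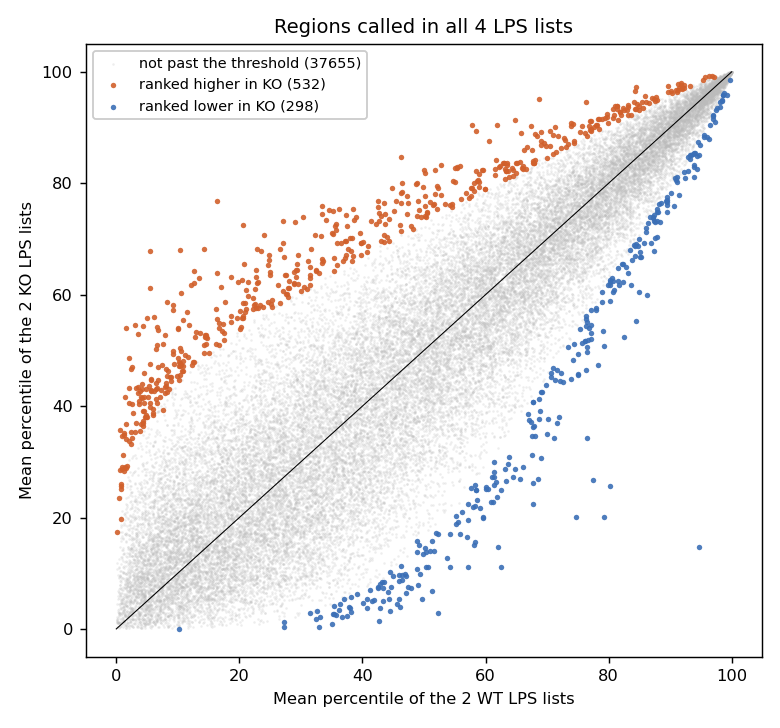
Mean percentile of -log10 p in the 2 KO LPS lists against that in the 2 WT LPS lists, 1 point per common region. Points are grey where the region did not pass limma's threshold, orange for the 532 regions ranked higher in KO and blue for the 298 ranked lower; the line marks equal rank, and the called regions lie along the outer edges of the cloud.

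The promoters printed here belong to 5 genes whose start-site region changed rank past the threshold. They were chosen after their values were seen, because they carry the named changes at start sites and because the genes are known in myeloid or lymphoid cells. Each is the 250 bases before the start site from RefSeq, build GRCm38.p6, written 5′ to 3′ on the gene's strand, with capitals for matches on either strand to any of 10 motifs: the NF-kB consensus, the CArG box of serum response factor, AP-1 (TGANTCA), CRE (TGACGTCA), the interferon response core, PU.1 (GAGGAAGT), C/EBP (TTGCNNAA), the SP1 box (GGGCGG), the CCAAT box (CCAAT) and the E-box CACGTG.
S100a8 promoter, chr3:90668821-90669070, + strand: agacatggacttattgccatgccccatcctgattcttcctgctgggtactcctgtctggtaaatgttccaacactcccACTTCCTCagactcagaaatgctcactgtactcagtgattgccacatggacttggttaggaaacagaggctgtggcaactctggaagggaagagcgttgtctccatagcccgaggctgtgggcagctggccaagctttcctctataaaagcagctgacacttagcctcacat
Gpnmb promoter, chr6:49036268-49036517, + strand: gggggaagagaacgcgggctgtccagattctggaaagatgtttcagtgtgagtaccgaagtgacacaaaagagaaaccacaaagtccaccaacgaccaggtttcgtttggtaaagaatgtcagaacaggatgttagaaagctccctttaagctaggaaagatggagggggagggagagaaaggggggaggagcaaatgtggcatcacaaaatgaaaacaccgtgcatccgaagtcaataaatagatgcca
Slfn1 promoter, chr11:83116570-83116819, + strand: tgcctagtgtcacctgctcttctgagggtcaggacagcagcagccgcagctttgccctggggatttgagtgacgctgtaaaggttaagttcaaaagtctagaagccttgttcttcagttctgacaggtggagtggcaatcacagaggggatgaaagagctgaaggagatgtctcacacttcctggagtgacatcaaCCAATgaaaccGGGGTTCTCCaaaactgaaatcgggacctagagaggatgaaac
Irf4 promoter, chr13:30748983-30749232, + strand: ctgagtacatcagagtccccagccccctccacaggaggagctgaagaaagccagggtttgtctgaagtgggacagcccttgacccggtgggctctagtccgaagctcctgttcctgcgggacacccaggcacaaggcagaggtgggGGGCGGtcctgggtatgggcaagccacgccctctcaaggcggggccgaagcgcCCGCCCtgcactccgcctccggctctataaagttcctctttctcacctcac
Fcrl5 promoter, chr3:87435532-87435781, + strand: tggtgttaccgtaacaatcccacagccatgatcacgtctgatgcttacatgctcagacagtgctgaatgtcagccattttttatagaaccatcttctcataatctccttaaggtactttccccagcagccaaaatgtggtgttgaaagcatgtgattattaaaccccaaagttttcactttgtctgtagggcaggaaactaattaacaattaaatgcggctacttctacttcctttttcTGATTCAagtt
The capitals are a PU.1 match for S100a8, the NF-kB and CCAAT matches for Slfn1, SP1 boxes for Irf4 and AP-1 for Fcrl5, while Gpnmb held none of the 10. A match describes the letters and is not evidence of binding. Over all 20085 promoters on these chromosomes with a start site, 2.26% held the PU.1 letters, 8.06% the NF-kB consensus, 35.3% the CCAAT box, 43.4% the SP1 box and 6.18% the AP-1 letters.

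At the start of S100a8, which encodes a calcium-binding subunit of calprotectin, the region 88 bp from the start site (chromosome 3, 90668776 to 90669229) stood at the 12.5 and 12.7 percentiles in WT LPS and at 65.9 and 62.6 in KO LPS. It ranked higher in KO by 1.51 normal-score units (SE 0.27, limma adjusted p = 0.00107). Without LPS its -log10 p was 63.3 and 53.8 in WT and 90.3 and 117 in KO, so that the KO values lay above the WT values in both conditions. Such untreated values of named regions are -log10 p and not ranks, and are not scaled between libraries. The region lies within 20 Mb of Lmna on the same chromosome. At Gpnmb, which encodes a transmembrane glycoprotein of lysosomes and phagosomes, the region over the start site (chromosome 6, 49036351 to 49036769) stood at 24.7 and 16.7 in WT LPS and at 61.5 and 69.3 in KO LPS. The difference was 1.22 (SE 0.24, limma adjusted p = 0.00307), and the untreated values of the 2 genotypes overlapped, at -log10 p of 110 and 123 in WT and 93.4 and 140 in KO. At Slfn1, a member of the interferon-inducible Schlafen family, the start-site region (chromosome 11, 83116661 to 83117172) stood at 25.02 and 34.0 in WT LPS and at 62.6 and 71.6 in KO LPS, a difference of 0.99 (SE 0.22, limma adjusted p = 0.00823). Neither untreated WT list held this Slfn1 region and both untreated KO lists did, with -log10 p of 19.3 and 44.3. Of these 3 regions, only that of S100a8 also passed with ranks of fold enrichment, with a limma adjusted p of 0.0412 against 0.0772 for Gpnmb and 0.0958 for Slfn1. With each LPS library left out in turn, S100a8 and Gpnmb passed each time, and Slfn1 did not without the first WT or the second KO library (highest limma adjusted p 0.0901).

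At Irf4, which encodes an interferon regulatory factor of lymphocytes and of alternatively activated macrophages, the start-site region (chromosome 13, 30748996 to 30749477) stood at the 27.4 and 38.4 percentiles in WT LPS and at 0.526 and 0.32 in KO LPS. It ranked lower in KO by 2.19 units: the difference was -2.19 (SE 0.49, limma adjusted p = 0.00902). Without LPS all 4 lists held it, at -log10 p of 65.8 and 70.9 in WT and 51.9 and 46.8 in KO. At Fcrl5, an Fc receptor-like gene, the region 137 bp from the start site (chromosome 3, 87435436 to 87435922) stood at 53.0 and 51.6 in WT LPS and at 2.93 in both KO LPS libraries, a difference of -1.95 (SE 0.37, limma adjusted p = 0.0021). The 2 untreated WT lists held the Fcrl5 region at -log10 p of 17.2 and 21.4, and neither untreated KO list held it. Both regions passed with ranks of fold enrichment, with limma adjusted p of 0.0465 for Irf4 and 0.0181 for Fcrl5. Both calls were lost without either WT LPS library, at 0.0949 and 0.249 for Irf4 and 0.0693 and 0.0691 for Fcrl5. Fcrl5 lies within 20 Mb of Lmna, as S100a8 does, where sequence carried along with the targeted allele cannot be told apart from the loss of Lamin-A.

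The targeted gene had both a lost and a gained region, as did other genes such as Cd44 and Dusp1. Lmna, on chromosome 3, had 11 regions assigned to it. The region from 88483646 to 88483948, inside the gene, was lost, with -log10 p of 34.3 and 29.3 in WT LPS and no peak in KO LPS. The untreated WT lists held it at 12.1 and 23.4, and neither untreated KO list did. The region from 88484577 to 88484882, inside the gene as well, was gained, with -log10 p of 34.9 and 25.8 in KO LPS and no peak in WT LPS. The untreated KO lists held it at 38.6 and 49.8, and neither untreated WT list did. The region across the upper end of the gene, from 88509817 to 88510409, had -log10 p of 336 and 299.8 in WT and 297 and 271 in KO and did not pass (limma adjusted p = 0.768). The 6 common regions of Lmna had adjusted p-values of 0.70 to 0.94. Which exons were targeted is not stated, so a change of sequence and a change of accessibility inside Lmna cannot be told apart. None of the regions of Lmnb1 and Lmnb2, which encode the B-type lamins, was gained, lost or past the rank threshold.

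The regions with the largest rise in normal score in KO were mostly very weak in WT and moderate in KO. Normal scores spread the ranks at either end more widely than percentiles do. The largest was inside Hes7, a basic helix-loop-helix repressor of the segmentation clock and a Notch target (chromosome 11, 69123473 to 69123898), at percentiles of 0.0091 and 1.26 in WT and 29.1 and 28.0 in KO, a difference of 2.42 (SE 0.55, limma adjusted p = 0.0109). Inside Cd47, which encodes the membrane protein that restrains phagocytosis through SIRP alpha, the region from 49896204 to 49896611 on chromosome 16 stood at 0.019 and 3.05 in WT and at 49.2 and 19.1 in KO, a difference of 2.26 (SE 0.53). Inside Cpeb4, an RNA-binding regulator of poly(A) tail length, the region from 31917679 to 31918150 on chromosome 11 stood at 9.0 and 1.81 in WT and at 66.3 and 69.2 in KO, a difference of 2.18 (SE 0.32). Inside Mgat5, an enzyme that branches N-glycans, the region from 127225057 to 127225424 on chromosome 1 stood at 9.78 and 0.34 in WT and at 48.9 and 62.7 in KO, a difference of 2.15 (SE 0.40). That both KO libraries lay above both WT libraries was a condition for naming these regions, and it held in 8772 common regions (22.8%). On percentiles in place of normal scores the difference was 27.9 points for Hes7 and 62.4 for Cpeb4. The others of the 10 were assigned to Marchf4, a membrane-bound ubiquitin ligase (difference 2.25), to Gm42166 (2.25), to Kif26b, a kinesin family member (2.19), to Cep78, a centrosomal protein gene (2.12), and to Serp2 (2.09), with 1 region on chromosome 13 from 93251761 to 93252136 more than 50 kb from any gene (2.09). In KO the 10 stood between the 19.1 and 69.2 percentiles, and in WT between 0.0091 and 9.78. Of the 20 regions with the largest rises and falls, 9 of the 19 that could be matched did not pass without the first WT library, 9 without the second, 1 without the first KO library and 5 without the second, and 9 did not pass with fold enrichment.

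**Figure D2:**
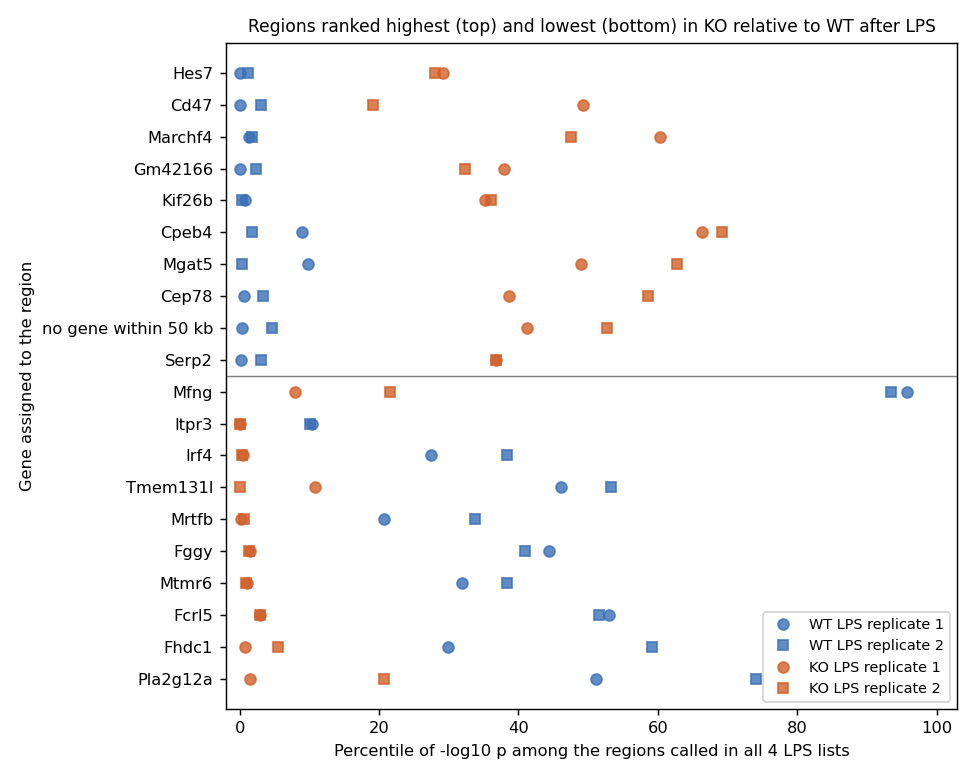
Percentile of -log10 p among the common regions in each of the 4 LPS libraries for the 10 regions with the largest rise (upper block) and the 10 with the largest fall (lower block) in KO by normal score, labelled with the assigned gene. WT libraries are blue and KO libraries orange, circles are replicate 1 and squares replicate 2; the Mfng region falls from above the 93rd percentile in WT to 8.0 and 21.6 in KO.

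The fall at Mfng stood out among the regions ranked lower. Mfng encodes Manic fringe, a glycosyltransferase that modifies Notch receptors, and the region lies 2.7 kb outside the gene (chromosome 15, 78752897 to 78753380). Its -log10 p was 309 and 234 in WT LPS and 19.6 and 23.7 in KO LPS, at percentiles of 95.8 and 93.5 in WT and 8.0 and 21.6 in KO. The difference was -2.72 (SE 0.19, limma adjusted p = 2.8e-14). In the untreated libraries, which took no part in choosing it, the -log10 p was 207 and 243 in WT and neither KO list held the region. It passed the threshold with ranks of fold enrichment as well (limma adjusted p = 0.000649).

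The other regions of large falls stood between the 10.0 and 74.1 percentiles in WT and between 0.0013 and 20.7 in KO. Near the start of Itpr3, a calcium release channel of the endoplasmic reticulum, the region 283 bp from the start site stood at 10.4 and 10.0 in WT and at 0.022 and 0.0013 in KO, a difference of -2.59 (SE 0.68, limma adjusted p = 0.0307). On percentiles this difference was -10.2 points. Beside Mrtfb, a cofactor of serum response factor that responds to actin, the region 2.5 kb outside the gene stood at 20.7 and 33.8 in WT and at 0.23 and 0.62 in KO, a difference of -2.05 (SE 0.51, limma adjusted p = 0.0207). At Pla2g12a, a secreted phospholipase A2 gene, the percentiles were 51.1 and 74.1 in WT and 1.52 and 20.7 in KO, a difference of -1.83 (SE 0.34, limma adjusted p = 0.00198). The rest of the 10, with Irf4 and Fcrl5 above, were in or near Tmem131l (-2.16), Fggy, a carbohydrate kinase gene (-2.01), Mtmr6, a phosphoinositide phosphatase gene (-1.96), and Fhdc1, a formin-related gene (-1.85). Those of Tmem131l, Fhdc1 and Fcrl5 lie within 20 Mb of Lmna. At Fhdc1 and Tmem131l the untreated libraries showed the same order, with -log10 p of 76.6 and 78.8 in WT and no peak in KO for Fhdc1, and 96.8 and 101 in WT against 23.3 and 25.1 in KO for Tmem131l.

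A few genes had several called common regions, and these were singled out after the calls were seen. Over all common regions 1.38% ranked higher and 0.774% lower. Plpp3, which encodes a membrane phosphatase that breaks down lysophosphatidic acid, had 4 of 12 common regions ranked higher and 1 gained region, with a median difference of 0.72 over the 12. At its start site, 75 bp away, the percentiles were 1.96 and 2.86 in WT and 33.0 and 33.4 in KO, a difference of 1.55 (SE 0.42, limma adjusted p = 0.0374). In the change with the lowest p inside it, from 105219636 to 105220066 on chromosome 4, the percentiles were 48.6 and 51.7 in WT and 84.8 and 78.9 in KO, a difference of 0.91 (SE 0.16, limma adjusted p = 0.000929). The untreated -log10 p was 29.6 and 17.5 in WT and 50.2 and 89.2 in KO for this second Plpp3 region, and at the start site it was 23.3 in the first WT list, with no peak in the second, and 23.1 and 21.0 in KO. With fold enrichment neither passed (limma adjusted p = 0.141 at the start site and 0.18 at the second region); with each LPS library left out in turn the start-site call was lost every time (0.0883 to 0.14) and the other was kept. Cd44, the hyaluronan receptor, had 3 of 13 common regions ranked higher, and the one from 102887128 to 102887881 on chromosome 2 stood at 51.6 and 59.0 in WT and at 81.6 and 84.3 in KO, a difference of 0.82 (SE 0.15, limma adjusted p = 0.0021, and 0.052 with fold enrichment). The other 2 called Cd44 regions failed with fold enrichment and in 3 of the 4 cases with a library left out. Gramd1b, a sterol transfer protein gene, had 3 of 23 higher and Tenm4, a teneurin gene, 3 of 9. In the other direction Atxn7l1 had 3 of 16 common regions ranked lower and 3 lost regions, with a median difference of -0.20. None of the 3 called Atxn7l1 regions passed with fold enrichment (limma adjusted p = 0.118 to 0.204). How the Gramd1b and Tenm4 calls fare under other settings is not given here.

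Gained regions were weak peaks in KO. Their median percentile within the full KO lists was 16.6, both KO peaks lay under the 25th percentile in 314 of 546 (57.5%), and both reached the 50th in 5. The strongest was more than 50 kb from any gene on chromosome 10, from 9985372 to 9985795, with -log10 p of 70.1 and 42.8 in KO LPS. Inside Aopep, an aminopeptidase gene, the KO LPS values were 59.1 and 49.5. Inside Dclk2, a doublecortin-like kinase gene, they were 57.2 and 47.1, and the 2 untreated KO lists held the region at 59.5 and 107 while no WT list did. Cd5l, which encodes a scavenger protein secreted by macrophages, had a gained region 23.1 kb from the gene at 58.1 and 37.6, which the untreated KO lists held at 88.2 and 72.4 and the untreated WT lists did not. A gained region inside Pik3r2, a regulatory subunit gene of phosphoinositide 3-kinase, was at 48.9 and 42.9 and was also held by the 2 untreated KO lists only. Those near Fbln1, an extracellular matrix gene, and inside Fbxo36, an F-box gene, had peaks in all 4 untreated lists. The others of the 10 were 2 gene-distant regions on chromosome 4, from 83973210 and from 84037511, and the region near Plpp3. Dclk2 and Cd5l lie within 20 Mb of Lmna. Gained regions also covered the start of Slfn4, 59 bp from the start site, and that of Mefv, which encodes pyrin, at 34 bp; these 2 were picked out after the classes were seen.

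Lost regions were weak in WT. Their median percentile in the full WT lists was 18.9, both WT peaks lay under the 25th percentile in 2619 of 5245 (49.9%) and both reached the 50th in 17. Among the regions that kept both WT peaks at equal list length, the strongest was inside Babam2, a subunit gene of the BRCA1-A complex, at -log10 p of 60.0 and 59.3 in WT LPS, and all 4 untreated lists held it. The region 2.3 kb from Tbx5, a T-box transcription factor of heart development, was at 71.3 and 47.1 in WT LPS and at 85.7 and 84.6 in untreated WT, with no peak in any of the 4 KO lists. The region inside Ccdc38 was at 83.5 and 34.9 in WT LPS and at 22.2 and 18.6 in untreated WT, also with no KO peak. The region 337 bp from the start of Cep43, a centrosomal protein gene, was at 46.2 and 50.4. The regions inside Snd1, Baz2b and Scaper, inside Btbd8, and near Tubb1, a beta tubulin of platelets, and Dhx40, an RNA helicase gene, completed the 10. The untreated libraries held no peak at those of Btbd8 and Tubb1.

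The classes differed in position. Of all regions, 5.82% lay in gene-poor windows, which are 1 Mb windows with 2 or fewer protein-coding genes. The share was 5.87% for lost regions, 13.4% (73 regions) for gained regions, 9.4% (50) for regions ranked higher and 5.03% for regions ranked lower. More than 50 kb from any gene lay 9.82% of all regions, 17.0% of the gained, 10.4% of the lost, 15.0% of those ranked higher and 9.73% of those ranked lower. Within 1 kb of a start site lay 15.7% of all regions, 21.4% of the common, 6.87% of the gained, 6.39% of the lost, 11.3% of those ranked higher and 21.8% of those ranked lower, counted on the 18 chromosomes whose start sites were used. With equal list lengths the gene-poor share was 9.34% of gained and 5.73% of lost regions against 5.68% of all. Neighbouring regions are not replicates, so these shares are descriptions. On chromosome 3, which carries Lmna, lay 8.42% of the gained regions against 5.05% of all, and within 20 Mb of Lmna lay 15 gained regions (2.75%) and 100 lost regions (1.91%), against 1.91% of all regions. The share of peaks within 1 kb of a start site was 16.9 and 17.7% in the WT lists and 19.4 and 20.2% in the KO lists, a difference of 2.51 points (exact permutation p = 0.333, the smallest possible), which was 0.70 points at equal list length.

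**Figure D3:**
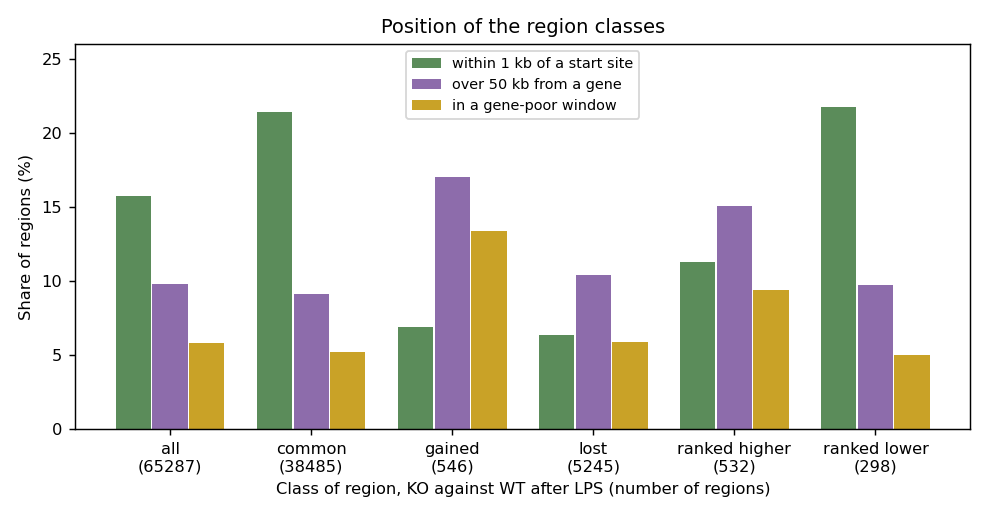
Share of regions within 1 kb of a start site, over 50 kb from any protein-coding gene and in a gene-poor window, for all regions and each class, with the number of regions under each class. The gene-poor share is 13.4% for gained regions and 9.4% for regions ranked higher in KO, against 5.82% for all regions.

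Whether gene-poor regions as a whole changed rank was then examined over samples, a comparison chosen after the shares were seen. Of 30395 regions with a peak in all 8 lists, 1407 lay in gene-poor windows. Their median percentile was 44.7 and 43.6 in WT LPS and 45.3 and 47.6 in KO LPS, so the KO values lay above the WT values by 2.35 points (exact permutation p = 0.333). Without LPS it was 42.8 and 42.5 in WT and 43.5 and 43.8 in KO. Over both conditions the difference was 1.69 points, with an exact permutation p of 0.0556 within treatments, the smallest that 36 arrangements can give. With ranks of fold enrichment the LPS difference was 0.31 points and that over both conditions was -0.46 (exact permutation p = 0.389), so the direction over both conditions turned with the value that was ranked.

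The gene lists describe pathways of macrophages and LPS signalling, and their shares are read against those of all 58873 regions assigned to a gene, of which 0.769% were gained and 7.98% lost. Of the 34973 common regions among them 1.29% ranked higher and 0.769% lower. Genes with more regions have more chances of a call, and the counts of gained and lost regions that follow are from the lists as deposited unless equal length is named. At equal list length, where 2.55% of regions assigned to a gene were gained and 3.16% lost, gained regions outnumbered lost ones in several lists: 9 against 8 of 211 for inflammatory genes, 8 against 5 of 224 for the interferon response, 15 against 6 of 340 for macrophage identity (4.41 and 1.76%), 5 against 3 of 121 for alternative activation, 9 against 8 of 270 for Fc receptors and phagocytosis, 4 against 1 of 148 for lysosome genes, 2 against 1 of 105 for the nuclear envelope and 4 against 3 of 111 for olfactory and vomeronasal receptors. Lost ones outnumbered gained ones by 4 to 3 of 199 for the NF-kB pathway, 10 to 2 of 238 for Toll-like receptor and MAP kinase signalling, 6 to 1 of 212 for AP-1, 5 to 2 of 112 for antigen presentation, 6 to 5 of 226 for chemokine receptors and integrins, 6 to 4 of 234 for actin genes, 7 to 4 of 186 for lipid genes, 6 to 3 of 171 for glycolysis and 4 to 3 of 131 for the cell cycle. These counts are small, and which side is larger was not tested in any list. For the nuclear envelope the gained share, 1.90%, lay under that of all genes. The 24 called regions counted next are a selection and not all called regions of the lists. List members among the largest rises and falls above, such as Fcrl5, are not in that count. Among 24 called regions from these lists and the marker lists below, counted with those of Plpp3, Cd44 and Slfn1, the ones of S100a8 and Srebf2 passed with fold enrichment (limma adjusted p = 0.0412 and 0.0484), and 5 passed with each LPS library left out in turn, namely S100a8, Gpnmb, Csf2 and 1 region each of Plpp3 and Cd44. Of 251 regions of inflammatory cytokines and enzymes, 25 were lost (9.96%) and 2 gained, and of 155 common regions 2 ranked higher and 1 lower. The higher ones included a region 22.8 kb from Csf2, which encodes the growth factor GM-CSF, at percentiles of 3.3 and 0.74 in WT and 46.3 and 40.3 in KO (difference 1.97, SE 0.42, limma adjusted p = 0.0062). Il6, an LPS-induced cytokine gene, had 4 of 7 regions lost, all weak, with -log10 p from 15.5 to 34.2 in WT LPS. The Il6 region 203 bp from the start site was held by all lists at the 74.8 and 78.5 percentiles in WT and 83.7 and 87.6 in KO, a difference of 0.34 that did not pass (limma adjusted p = 0.19). Edn1 and Il1b had 3 of 12 regions lost each. Of 226 regions of the NF-kB pathway, 15 were lost and 2 gained, with 3 of the lost among the 12 regions of Tnip3, an inhibitor of the pathway. None of its 148 common regions passed, the largest differences being 1.04 at Nfkbiz and -1.45 at Map3k14. Of 277 regions of Toll-like receptor and MAP kinase signalling genes, 26 were lost and 2 gained, and of 176 common regions 4 ranked higher and 2 lower. The 2 largest rises were at Tab2, a TAK1 adaptor (1.24, limma adjusted p = 0.0397), and Dusp4, a MAP kinase phosphatase (1.08, limma adjusted p = 0.0355). The largest fall was 13.1 kb from Dusp1, another phosphatase, at 40.8 and 50.4 in WT and 1.74 and 7.29 in KO (-1.67, limma adjusted p = 0.0105). Dusp1 had regions in both directions, with 1 of its 16 regions gained and 3 lost, and 1 of 11 common regions higher and 1 lower. Dusp16 had 3 of 15 regions lost. Of 252 interferon response regions 16 were lost and 4 gained, and none of 164 common ones passed, the largest differences being 1.32 at Irgm1 and -1.75 at Irf1. Of 236 AP-1 and immediate early regions 14 were lost and 0 gained, 6 of the lost among the 44 regions of Bach2, and 1 of 166 common ones ranked higher.

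The counts here and in the next paragraph stand beside 7.98% of regions lost and 0.769% gained over all genes. Over all genes 1.29% of common regions ranked higher and 0.769% lower. Macrophage identity genes had 34 of 388 regions lost (8.76%) and 4 gained (1.03%), and 5 of 262 common regions ranked higher (1.91%) and 3 lower (1.15%). A region inside Fli1, an ETS factor, rose from 4.68 and 3.55 in WT to 52.7 and 33.5 in KO (1.56, limma adjusted p = 0.0181). Among these genes 6 of 40 regions were lost at Etv6, 4 of 39 at Runx1, 4 of 27 at Runx2 and 4 of 29 at Mitf. Etv6 and Runx1 also had 1 gained region each, Runx1 had 1 ranked lower, and Runx2 had 2 gained and 1 higher. Alternative activation and scavenging genes had 6 of 137 regions lost (4.38%) and 4 gained (2.92%), 2 of the gained among the 4 regions of Colec12, a scavenger receptor. Of 92 common regions 3 ranked higher (3.26%) and 0 lower. The largest of these was 23.6 kb from Cd5l, at 3.89 and 7.46 in WT and 26.5 and 59.4 in KO (1.41, limma adjusted p = 0.0331), and without LPS its order was the other way, with -log10 p of 33.3 and 36.9 in WT and 14.4 and no peak in KO. Fc receptor and phagocytosis genes had 19 of 324 lost (5.86%) and 4 gained (1.23%). The lost included 3 of 15 regions of Vav1, 3 of 24 of Vav3 and 3 of 8 of Fcgr1, the high-affinity IgG receptor. Of 201 common regions 4 ranked higher (1.99%) and 1 lower (0.498%). Antigen presentation genes had 8 of 130 lost (6.15%) and 0 gained, and 2 of 80 common regions ranked higher (2.5%), the larger inside Cd1d1, a lipid-presenting molecule (1.63, limma adjusted p = 0.033). The regions of Cd1d1 and Cd5l lie within 20 Mb of Lmna. Chemokine receptor and integrin genes had 22 of 273 lost (8.06%), 4 of them among the 15 regions of Itgb5, and 1 gained (0.366%). Of 168 common regions 5 ranked higher (2.98%), 3 of them at Cd44, and 1 lower (0.595%).

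Actin cytoskeleton and serum response factor target genes had 16 of 284 regions lost (5.63%), 3 of them among the 6 of Diaph3, a formin, and 0 gained. Of 172 common regions 0 ranked higher and 2 lower (1.16%), including that of Mrtfb. Another Mrtfb region, inside the gene, differed by 1.25 the other way and did not pass (limma adjusted p = 0.27). Lysosome genes had 3 of 162 regions lost, 1.85%, and 3 gained, and 2 of 117 common regions ranked higher, including the Gpnmb start site; the median difference of the 117 was 0.11 against -0.01 for all genes. Lipid and cholesterol genes had 20 of 211 lost (9.48%), including 3 of 6 regions of Lpcat3 and 3 of 8 of Ptgs1, and 2 gained (0.948%). Of 135 common regions 3 ranked higher (2.22%) and 1 lower (0.741%). A region inside Apoc2, an apolipoprotein gene, rose from 5.91 and 31.3 to 56.3 and 70.2 (1.37, limma adjusted p = 0.00559). One inside Srebf2, the transcription factor of cholesterol synthesis, fell from 42.2 and 41.7 to 3.39 and 6.96 (-1.45, limma adjusted p = 0.0251). Glycolysis and hypoxia genes had 15 of 197 lost (7.61%), 3 of them among the 8 of Egln1, an oxygen-sensing hydroxylase. They had 1 gained (0.508%) and 1 of 133 common regions higher (0.752%). Cell cycle genes had the highest lost share of the 17 pathway and family lists, 21 of 162 (13.0%). The lost included 5 of 8 regions of Myc and 3 of 10 of Ccnd2, which encodes cyclin D2. None of the 100 common regions of the list passed. At equal list length 4 of 131 cell cycle regions were lost (3.05%), against 3.16% of all regions assigned to a gene. The 5 lost Myc regions had -log10 p from 11.4 to 36.03 in WT LPS, and 4 of the 5 had a peak in both untreated KO lists. Nuclear envelope and lamina genes had 9 of 124 lost (7.26%) and 1 gained (0.806%), with none of 73 common regions past the threshold. Olfactory and vomeronasal receptor genes, families that often sit in lamina-associated chromatin, had 11 of 134 lost (8.21%) and 3 gained (2.24%). Of 64 common regions 1 ranked higher and 1 lower (1.56% each).

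**Figure D4:**
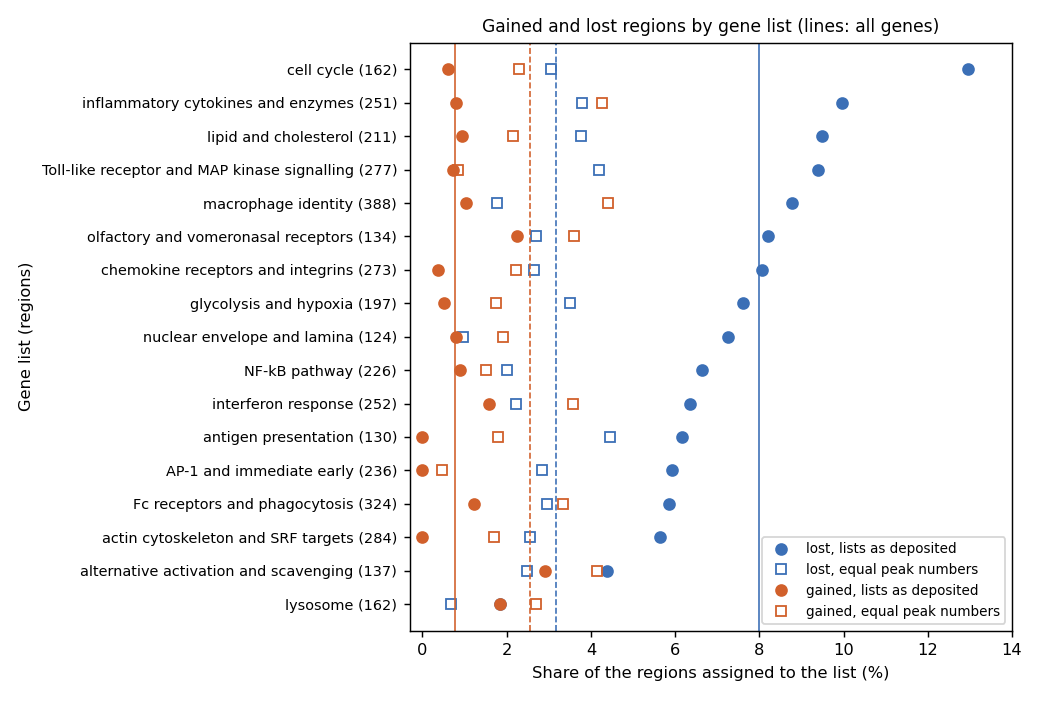
Share of regions gained (orange) and lost (blue) in KO for each of the 17 pathway and family lists, with the number of regions in parentheses, from the lists as deposited (filled circles) and at equal peak number (open squares). Lines give the shares over all regions assigned to a gene, solid as deposited and dashed at equal number; among these 17 lists the cell cycle list is highest for loss as deposited, at 13.0%, and lies at 3.05% at equal number, and for lysosome genes the gained and lost points coincide at 1.85%.

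Regions assigned to marker genes of several cell types were counted, which does not identify the cells the peaks came from. Their counts stand beside 7.98% of regions lost, 0.769% gained, and 1.29% of common regions higher and 0.769% lower over all genes. All 12 defining macrophage genes had regions, 86 in all, of which 80 and 77 were called in WT LPS and 63 and 60 in KO LPS. Of these, 10 were lost (11.6%, against 7.98% of all regions assigned to a gene), 1 of 56 common regions ranked higher, inside Mertk (0.78, limma adjusted p = 0.048), and 1 lower, 13.7 kb from Itgam (-0.67, limma adjusted p = 0.0249). Neutrophil genes had 16 regions, with 13 and 15 called in WT LPS and 15 and 12 in KO LPS; Elane, Mpo and Ngp had none, and the S100a8 start site was the 1 of 11 common regions that passed. S100a8 is also made by macrophages, and the part of other cells in its rise was not tested. The region 14.5 kb from S100a9, another gene of the neutrophil list, differed by -0.21 and did not pass (limma adjusted p = 0.778). The median difference of the 11 common neutrophil regions was 0.10. Dendritic cell genes had 35 regions, 2 lost, and 1 of 23 common ones, 10 kb from Ccr7, ranked higher (0.52, limma adjusted p = 0.0427). B cell genes had 17 regions with 3 lost and 1 gained, T and NK cell genes 21 with 4 lost, erythroid and megakaryocyte genes 7 with 1 lost, and stem and progenitor genes 27 with 4 lost, none with a common region past the threshold. Stromal and endothelial genes had 41 regions, called 40 and 35 times in WT LPS and 28 and 18 times in KO LPS, with 8 lost and 1 of 18 common regions, inside Cdh5, ranked lower (-0.53, limma adjusted p = 0.0316). At equal list length 3 of 73 macrophage regions were lost (4.11%), against 3.16% of all regions assigned to a gene. So were 1 of 31 stromal and endothelial, 1 of 17 T and NK cell and 1 of 20 stem and progenitor regions. None was lost among the 12 B cell, 14 neutrophil, 31 dendritic cell and 6 erythroid and megakaryocyte regions at equal length. Cd79a, Cd79b, Cd3g, Cd8a, Gata1, Col3a1 and Kit were among the markers with no region.

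The classes drawn after LPS were then looked at in the untreated libraries. Gained regions had a peak in 24.5 and 22.5% of cases in the untreated WT lists and in 30.8 and 40.3% in the untreated KO lists, and lost regions in 55.9 and 58.5% in WT and 33.6 and 35.98% in KO. As shares of a class, the genotypes did not overlap, while most single regions of either class did not divide the untreated libraries by genotype. The differences were 11.996 and -22.4 points, each with an exact permutation p of 0.333, the smallest possible. The untreated KO lists were shorter as well. With equal peak numbers in the 8 lists the differences were 17.2 points for gained and -10.2 points for lost regions. All regions together were called in 70.9 and 72.0% in untreated WT and 61.8 and 64.1% in untreated KO. Of 546 gained regions 53 were held by both KO and neither WT untreated list, and 284 by no untreated list. Of 5245 lost regions 631 were held by both WT and neither KO untreated list, 1325 by all 4 and 1813 by none. Among common regions with a called change, of the 532 ranked higher, 376 had a peak in all 8 lists, and their median percentile without LPS was 34.4 and 31.1 in WT and 60.2 and 60.6 in KO. The mean untreated score was higher in KO in 362 of the 376 (96.3%), against 48.5% of all 30395 regions in the 8 lists. Of the 298 ranked lower, 219 had a peak in all 8, with untreated medians of 64.1 and 65.0 in WT and 54.5 and 51.1 in KO, and 194 were lower in KO. These median differences, 27.7 and -11.8 points, have an exact permutation p of 0.333. Whether libraries of 1 genotype share animals is not stated, so genotype and animal cannot be told apart.

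**Figure D5:**
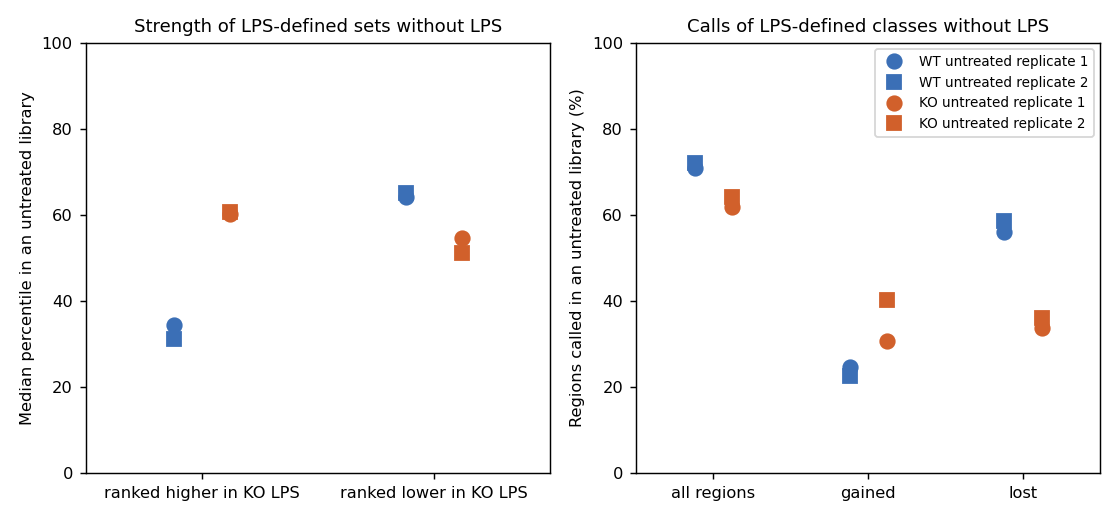
Left, median percentile of -log10 p in each untreated library over the regions with a peak in all 8 lists that ranked higher (376) or lower (219) in KO after LPS. Right, share of all, gained and lost regions that had a peak in each untreated library; WT libraries are blue and KO libraries orange, circles replicate 1 and squares replicate 2, and in every column the genotypes do not overlap.

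A direct test of the genotype difference after LPS against that without LPS was made by the interaction term of limma over the 30395 regions called in all 8 lists. With a positive sign 0 regions passed, and with a negative sign 1 did (0.00329%), while 2284 had an unadjusted p under 0.05. The 1 region lies 35.4 kb from Nfil3, a basic leucine zipper factor of immune cells, on chromosome 13 from 53017897 to 53018501. Its percentile was 96.7 and 96.4 in WT LPS, 98.8 in both KO LPS libraries, 3.55 and 7.75 in untreated WT and 69.0 and 55.9 in untreated KO. The interaction was -1.49 (SE 0.21, limma adjusted p = 0.00423). Irf4, whose start-site score differed by -0.03 between the untreated genotypes, had an interaction of -2.04 that did not pass (limma adjusted p = 0.185), and 7 others of the 20 largest changes had a peak in all 8 lists. Their differences without and with LPS were 1.56 and 2.39 for Hes7, 2.17 and 2.31 for Marchf4, 1.59 and 2.20 for Mgat5, 0.75 and 2.15 for Cep78, 0.54 and 2.13 for the gene-distant region on chromosome 13, -0.76 and -2.29 for Itpr3, and -1.37 and -2.07 for Tmem131l, and none of these interactions passed. Irf4 and these regions were chosen for large differences after LPS, so a larger value with LPS than without can follow from the choice alone.

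Promoter letters were counted over the 59 promoters overlapped by a region ranked higher, the 71 by one ranked lower, the 171 by a lost region and the 14 by a gained region, beside the 8786 overlapped by any common region. The E-box CACGTG was in 16.9% of the higher and 19.7% of the lower promoters against 9.19% of those with a common region and 6.69% of all, and in 4.68% of the lost. The CCAAT box was in 20.3% of the higher, 42.3% of the lower and 25.1% of the lost against 37.8% with a common region. The NF-kB consensus was in 8.47% of the higher, 15.5% of the lower and 11.7% of the lost against 9.17%, and the AP-1 letters were in 5.08, 4.23 and 8.77% against 4.36%. PU.1 was in 5.08% of the higher, 2.82% of the lower and 3.51% of the lost against 2.75%. Each of these shares rests on few promoters and was not tested.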

How the data were processed

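ATAC-seq libraries were deposited as 1 peak list per library. Per the submitters' processing notes, BWA 0.7.12, MACS2 and the mm10 build were used; the filter that the lists are named for is not given in the sources used here. The deposited lists hold, per peak, a score, a fold enrichment over local background (a ratio), the -log10 p and the -log10 q, all made by the authors within 1 library. Ranks of the deposited -log10 p were used here, since depths were not used and values are not scaled between libraries; -log10 p itself grows with depth.

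Peaks on chromosomes 1 to 19 were merged where they overlapped by at least 1 bp. A region was assigned to the nearest of 21887 RefSeq protein-coding genes (GRCm38.p6, the same build) within 50 kb of its summit. Start sites came from RefSeq for 17492 of them, on 18 chromosomes; those of chromosome 18 were not used here. limma 3.58.1 (R 4.3.3) with a mean-variance trend was fitted to normal scores over all common regions, with adjustment by Benjamini-Hochberg at 0.05. The fit was also run on simulated data whose spread was set by the mean score. Such data hold the trend by design and cannot test it. Single values were compared by exact two-sided permutation.

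Named regions are the 10 largest changes in each direction past the threshold with no overlap, the 10 strongest gained and lost (lost only where both WT peaks stay at equal list length), list genes with 3 lost or 2 gained regions (up to 4 per list), the lamin genes, and the 2 largest changes up and down of each list. Not every one of the last is printed. The groups, regions, gene lists and markers were chosen with earlier results of these data known. The replicate numbers did not pair the libraries (correlation 0.0015).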

Additional observations from a re-analysis of the deposited data

Results flagged for a closer look

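The region 35.4 kb from Nfil3 (chromosome 13, 53017897 to 53018501) was singled out because the genotype difference after LPS and that without LPS differed by the interaction test itself. The interaction was -1.49 (limma adjusted p = 0.00423). The KO minus WT difference was 1.94 normal-score units without LPS, and after LPS the region was above the 96th percentile in all 4 libraries. The adjusted p was over 0.05 when either WT LPS library, either KO LPS library or the first untreated WT library was left out (0.0512 to 0.131) and with ranks of fold enrichment (0.35), and the difference kept its sign in each, from -1.68 to -1.30 over the libraries left out.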

How the results depend on the processing

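The number of gained regions was 1445 with equal peak numbers, 354 with peaks of -log10 p of at least 20 and 857 with windows around summits, and the number of lost regions was 1727 with equal peak numbers. Leaving out 1 library gave 916 to 2144 gained and 6991 to 11041 lost regions, since a class then needs fewer agreeing lists. The regions ranked higher and lower numbered 45 and 102 with fold enrichment, 5 and 1 with percentiles in place of normal scores, and 0 and 0 without the trend (limma, 4968 at an unadjusted p under 0.05). Without 1 library they numbered 283 to 619 higher and 35 to 901 lower, with the fewest lower when WT LPS replicate 2 was left out and the most when KO LPS replicate 1 was; a lone library is then assumed to vary like the other group. With the replicate block, which shares only a number, they were 830 and 539, and all 532 and 298 called without it were among them. The interaction called 0 regions with fold enrichment (limma, 2205 at an unadjusted p under 0.05) and 0 to 11 without 1 library. The cause of these changes was not tested. Of the 20 named common regions none changed sign under any setting run; 11 passed with fold enrichment, 1 with percentiles, 0 without the trend, and 10 to 19 without 1 library, and 3 could be matched at equal peak numbers, where all 3 passed. The other named common regions could not be tested at equal peak numbers. None of the 20 could be tested with peaks of -log10 p of at least 20, since each had a weaker peak in some LPS library. The peak-number, start-site and untreated-library differences kept their sign under each setting run, and their exact p cannot go below 0.333.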
